A study of Mus musculus with 6 samples.

Results

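In 32 protein-coding genes of the mouse mammary carcinoma line 4T1, the transcript that made up the largest part of the gene's expression in control cells was not the largest in cells overexpressing Limch1, a gene of the LIM and calponin-homology domain family. The genes were chosen on the deposited transcript FPKM (the number of fragments scaled to length and to the size of a library). In each gene, every listed transcript was expressed as a share of the gene's summed FPKM in each library. A gene was kept when its mean was at least 5 FPKM in both groups, when the transcript with the highest mean share (the dominant transcript) differed between the groups, and when the share of the control group's dominant transcript was lower in every overexpressing library than in every control library, by at least 30 percentage points in the group means. These were 32 of 7421 protein-coding genes with at least 2 listed transcripts, out of 7979 that reached the expression minimum. The members were thus selected on these share values, so the shares and their differences are given as a description and carry no test. That 0.431% of the genes considered met the rule is a property of the rule, and nothing is read from it.

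Both groups were 4T1 cells infected with a pLVX-IRES-neo lentivirus that had been packaged in HEK293T cells, a human embryonic kidney line, and then selected with antibiotic as stable lines. The virus carried mouse Limch1 in the group called Limch1_OE (3 libraries) and no insert in the group called Vector (3 libraries). The titles gave each sample's group and replicate number. Separate cultures or infections for the 3 libraries of a group are not stated in the labels, so the p-values here describe only how far these libraries differ, and that spread may be technical. Uninfected 4T1 cells were not analysed here. The targeted gene followed the labels, with Limch1 totals of 0.25, 0.15 and 0.1 FPKM in Vector and 23.96, 23.31 and 25.69 FPKM in Limch1_OE. Summed FPKM lay between 414837 and 416242 in Vector and between 421767 and 425064 in Limch1_OE, and the depth in reads is unknown. The 6 epithelial markers summed to between 1468 and 1535 FPKM in Vector and between 1431 and 1579 FPKM in Limch1_OE. Within this sum Cldn7 (mean 24.3 to 7.14 FPKM), Epcam (106.5 to 78.1 FPKM) and Cdh1 (290.04 to 255.6 FPKM) fell and Krt7 (213.6 to 276.0 FPKM) rose in the limma fit described with the totals (adjusted p = 4.77e-06, 0.000245, 0.0143 and 0.00315), while Krt8 and Krt18 did not pass. The part of these markers in the results was not tested. Every listed leukocyte, fibroblast and endothelial marker was under 1 FPKM.

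A mammalian gene can give several transcripts by starting at different promoters, by splicing different exons together, by keeping an intron, or by ending at different polyadenylation sites. Transcripts that keep an intron are often held in the nucleus, and those whose reading frame stops well before the last exon junction are typical substrates of nonsense-mediated decay, a pathway that degrades mRNA with premature stop codons. Short reads that fall in shared exons fit several transcripts of a gene, so a transcript's FPKM is an estimate that rests on the few reads over the bases or junctions in which the transcripts differ. An exact 0 can also come from such an estimate, so a transcript at that value is called listed at 0.

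The 32 genes did not all hold their dominant transcript in every library. In 10 of them (Chfr, Sacm1l, Tbl1xr1, Stx18, Rab40c, Rreb1, Vma21, Stk16, Atp5d and Tap2) 1 transcript was the largest in all 3 Vector libraries and another in all 3 Limch1_OE libraries. In the other 22 at least 1 library had a different largest transcript from its group, and the label of a changed dominant transcript holds for those genes on group means only. Of all 7421 genes, 24 had constant and different dominant transcripts in the 2 groups, and the remaining 14 missed another part of the rule. Within a single group the largest transcript was not the same in all 3 libraries for 14.4% of genes in Vector and 14.5% in Limch1_OE. The transcript that was dominant in Vector had a lower share without overlap in 940 of 7421 genes, which is 12.7%. The dominant transcript of Limch1_OE was higher without overlap in 27 of the 32 genes and by at least 30 points in 24. The same held without overlap in 359 of the 7421 genes (4.84%), and in 72 of the 110 genes (65.5%) whose dominant transcript differed and whose Vector dominant transcript was lower without overlap. Shares of a gene sum to 100%, so the rule largely sets this count too, and nothing is read from it.

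Spread between libraries was wide in these genes. The share of the Vector dominant transcript ranged over a median of 13.8 points among the 3 Vector libraries and 13.0 points among the 3 Limch1_OE libraries. Over the 7389 other genes these medians were 4.80 and 5.18 points. In 17 of the 32 genes the share of the Vector dominant transcript ranged over at least 30 points within Vector, within Limch1_OE or within both. Such a range was found within Vector in 6 of the 32 and within Limch1_OE in 12. Over all 7421 genes it was found in 10.2% within Vector and 9.85% within Limch1_OE. The difference between group means was larger than both within-group ranges in 19 of the 32 genes, as the plot of differences against ranges shows.

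**Figure D1:**
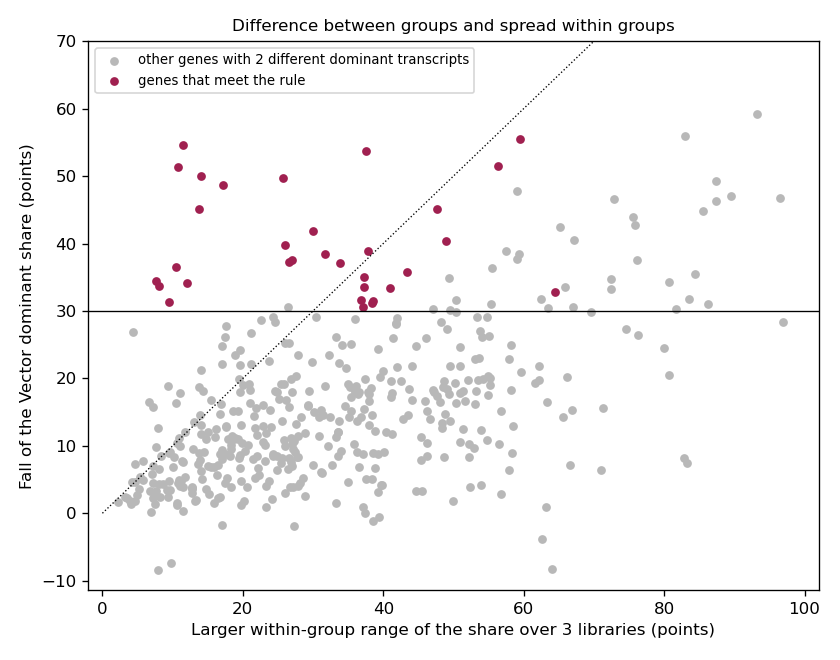
Each point is 1 of the 464 genes whose dominant transcript differed between the group means, less 1 gene that is listed at 0 in a library and has no share there. The x axis is the larger of the 2 within-group ranges of the Vector dominant transcript's share (percentage points), the y axis is the difference of group means (Vector minus Limch1_OE, percentage points), the line at 30 is the rule's minimum and the dotted line marks equality. Of the 32 genes of the rule (red), 19 lie above the dotted line.

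**Figure D2:**
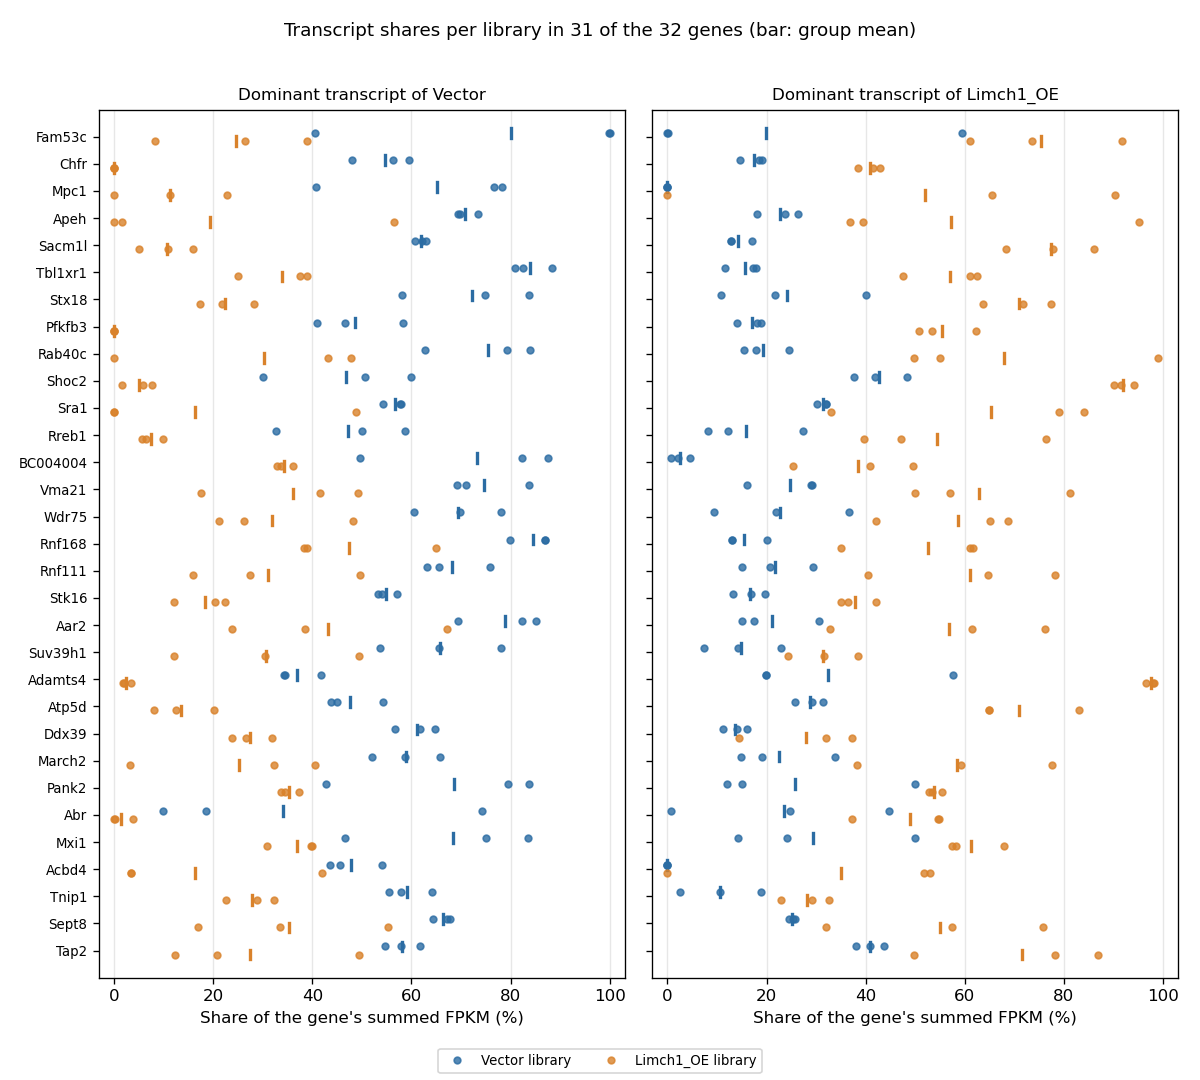
Shares of the gene's summed FPKM (%, x axis) in each library for the transcript dominant in Vector (left) and that dominant in Limch1_OE (right), for 31 of the 32 genes in order of the share difference. Points are libraries (blue Vector, orange Limch1_OE) and upright bars are group means. The colours are separated in the left panel by the rule, and in the right panel they overlap in 4 of the 31 genes.

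In 30 of the 32 genes both dominant transcripts are in GENCODE release M21 (build mm10), so that their exons could be compared. In 14 genes both transcripts are annotated as coding with different coding sequences, in 8 they are coding with the same coding sequence, in 5 a transcript annotated as not coding a full protein was dominant in Vector and a coding one in Limch1_OE, and in 3 the order was the other way round. Transcription start sites lay more than 50 bases apart in 20 of the 30 pairs (66.7%), and in 16 of those 20 the start in Limch1_OE was the downstream one. In the 7327 other genes with an annotated pair, the most and second most abundant transcripts started more than 50 bases apart in 65.5%. Of those 4796 genes the second most abundant had the downstream start in 3879 (80.9%). These pairs are ordered by abundance over all libraries and not by group, so the 80.9% is no background for the 16 in 20. Ends lay more than 50 bases apart in 12 of the 30 pairs (40%) and in 67.3% of the other genes. Pairs of 1 coding and 1 not coding transcript were 8 of 30 (26.7%) against 47.0% in the other genes, and pairs with the same coding sequence 26.7% against 12.8%. These percentages describe the lists, and the differences between them were not tested.

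In 5 genes (Chfr, Apeh, Stk16, Acbd4 and Tap2) the transcript dominant in Vector carried extra sequence that shifts or stops the reading frame, and the transcript dominant in Limch1_OE lacked it. The stretches that alter the frame are printed from the GENCODE M21 transcripts, 5′ to 3′ on the gene's strand, with the bases named here in capitals and the bases next to them in lower case. They are not the only differences. Stk16-201 alone has 32 bases at its start and 1364 at its end, Tap2-201 alone has 1040 at its start and Apeh-206 alone has 140 at its start, none of them coding. For Chfr the capitals are the first bases of the 73-base extra exon, at chr5:110140117-110140130 (plus strand), and the lower-case tga after them is its stop codon. The line for Chfr-202 has in capitals the bases that follow there, at chr5:110140354-110140367, which belong to the next exon of both transcripts. For Stk16 they are a 20-base extension of an exon at chr1:75213113-75213132 (plus strand), and for Acbd4 a 121-base exon at chr11:103103900-103104020 (plus strand). For Apeh they are a retained intron of 140 bases at chr9:108092414-108092553 (minus strand), and for Tap2 one of 162 bases at chr17:34212068-34212229 (plus strand).
Chfr-206: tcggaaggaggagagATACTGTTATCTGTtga
Chfr-202: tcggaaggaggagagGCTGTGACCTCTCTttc
Stk16-216: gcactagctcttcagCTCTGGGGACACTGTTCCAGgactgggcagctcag
Acbd4-202: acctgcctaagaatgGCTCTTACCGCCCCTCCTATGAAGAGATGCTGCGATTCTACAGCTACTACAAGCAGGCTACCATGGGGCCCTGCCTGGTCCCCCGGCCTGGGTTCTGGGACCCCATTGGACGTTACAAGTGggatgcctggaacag
Apeh-209: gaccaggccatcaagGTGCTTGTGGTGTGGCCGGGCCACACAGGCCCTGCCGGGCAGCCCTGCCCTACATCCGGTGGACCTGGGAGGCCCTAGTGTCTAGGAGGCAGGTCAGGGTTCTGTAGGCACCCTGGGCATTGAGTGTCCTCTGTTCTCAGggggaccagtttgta
Tap2-202: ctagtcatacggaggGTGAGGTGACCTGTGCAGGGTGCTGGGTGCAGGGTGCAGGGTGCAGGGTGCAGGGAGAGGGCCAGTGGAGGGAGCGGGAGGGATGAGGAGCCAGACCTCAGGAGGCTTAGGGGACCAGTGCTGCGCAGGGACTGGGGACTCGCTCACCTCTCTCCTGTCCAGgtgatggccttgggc
Both retained introns begin with GT and end with AG. Read in the frame of the coding partner, the first stop codon in the intron is a TAG at intron base 76 in Apeh and a TGA at intron base 7 in Tap2. The lengths of 20, 121 and 140 bases are not multiples of 3.

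**Figure D3:**
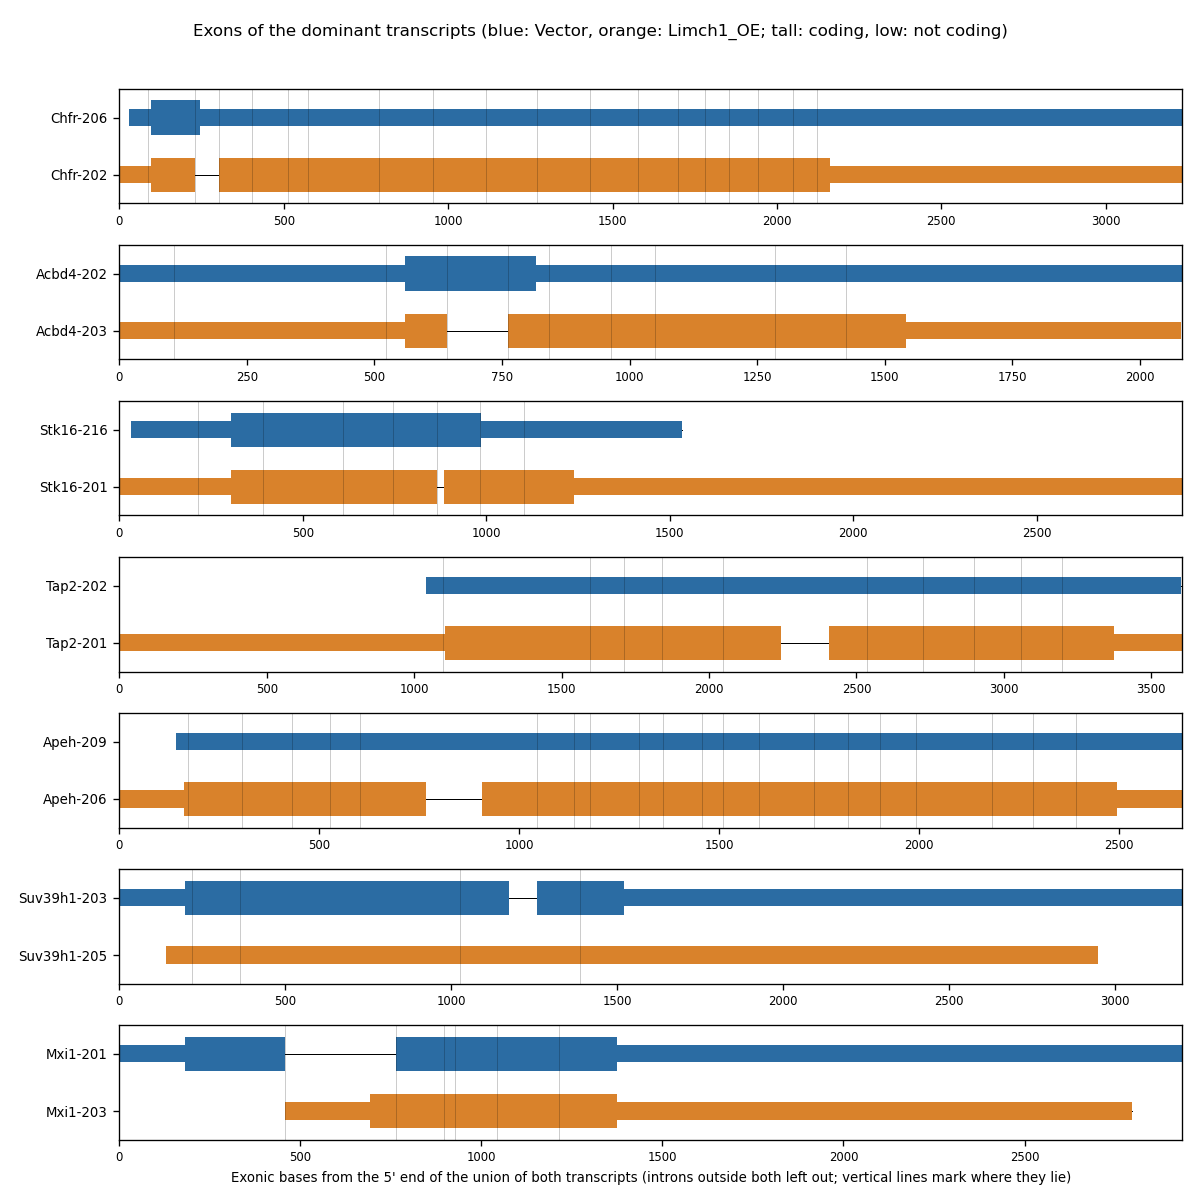
Exons of both dominant transcripts in 7 genes, drawn to scale in exonic bases (x axis, from the 5′ end of the union of both transcripts), with the Vector dominant transcript in blue and the Limch1_OE dominant one in orange. Tall boxes are annotated coding bases, low boxes are not coding, thin lines are bases the transcript lacks and vertical lines mark introns outside both. The gap in the orange bars of Chfr, Acbd4, Stk16, Tap2 and Apeh is the exon, extension or intron that only the blue transcript has.

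Chfr (ENSMUSG00000014668, chr5:110135842-110171972) encodes a ubiquitin ligase of a mitotic entry checkpoint. Chfr-206, annotated as a nonsense-mediated decay transcript with a coding sequence of 147 bases against 1992 in Chfr-202, was present at 4.56, 5.45 and 5.05 FPKM in Vector and 0, 0 and 0 FPKM in Limch1_OE. It was thus the largest transcript of every Vector library and was listed at 0 in every Limch1_OE library. The full-length Chfr-202 was present at 1.82, 1.69 and 1.32 FPKM in Vector and 4.18, 4.44 and 3.81 FPKM in Limch1_OE, and a further coding transcript, Chfr-201, at 2.3, 1.53 and 1.18 FPKM in Vector and 3.5, 4.42 and 3.75 FPKM in Limch1_OE. Both coding transcripts were higher in every Limch1_OE library than in any Vector library, while the gene totals of 9.49, 9.16 and 8.97 FPKM in Vector and 10.1, 10.4 and 9.93 FPKM in Limch1_OE did not pass the test described with the totals.

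Stk16 (ENSMUSG00000026201, chr1:75210838-75215606), a serine/threonine kinase of the Golgi, had shares that lay close together within each group. Stk16-216, annotated as a nonsense-mediated decay transcript, took 57.1%, 53.3% and 53.98% in Vector and 12.02%, 22.5% and 20.3% in Limch1_OE of the gene's FPKM. The coding Stk16-201 took 13.2%, 19.7% and 16.9% in Vector and 36.4%, 35.1% and 42.02% in Limch1_OE. Neither transcript's groups overlapped, and together the pair made up a mean of 71.4% of the gene in Vector and 56.1% in Limch1_OE, the rest being other listed transcripts such as the coding Stk16-202 at 11.8%, 11.5% and 12.6% in Vector and 17.97%, 21.3% and 13.3% in Limch1_OE.

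Tap2 (ENSMUSG00000024339, chr17:34203527-34216321) encodes a subunit of the transporter that carries peptides into the endoplasmic reticulum for loading on MHC class I. The intron-retaining Tap2-202 was listed at 20.3, 23.4 and 20.6 FPKM in Vector and 4.08, 11.4 and 2.74 FPKM in Limch1_OE, without overlap. The coding Tap2-201 was listed at 14.3, 14.4 and 16.4 FPKM in Vector and 15.3, 11.5 and 19.4 FPKM in Limch1_OE, and its groups overlapped. The coding form of Tap2 thus had overlapping levels in the 2 groups while the intron-retaining form was lower in Limch1_OE. In the second Limch1_OE library the 2 forms were nearly equal. When each library was left out in turn, Tap2 met the rule in 3 of 6 omissions. Tap2 was the only one of the 32 genes in any of 10 gene lists used here, that of type I interferon-stimulated genes. Of the 80 tested genes of that list 79 were lower and 1 higher in Limch1_OE, with a median log2 fold change of -2.04. Over all tested genes 14.4% were lower and 20.2% higher.

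Apeh (ENSMUSG00000032590, chr9:108085413-108094606), which removes acylated amino acids from the ends of peptides, divided the Limch1_OE libraries. The intron-retaining Apeh-209 took 69.8%, 69.4% and 73.3% in Vector and 0.03%, 56.4% and 1.58% in Limch1_OE. The second Limch1_OE library thus stood near the Vector libraries, and the other 2 were near 0. The coding Apeh-206 took 26.3%, 23.8% and 18.01% in Vector and 95.2%, 36.8% and 39.4% in Limch1_OE, and in the third Limch1_OE library another coding transcript, Apeh-201, was the largest at 53.0%.

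Acbd4 (ENSMUSG00000056938, chr11:103101682-103112200), an acyl-CoA-binding protein, had the same division. Acbd4-202, with the 121-base exon, took 43.5%, 54.1% and 45.5% in Vector and 3.46%, 41.99% and 3.45% in Limch1_OE. Acbd4-203, which lacks it, was listed at 0, 0 and 0 FPKM in Vector and 8.89, 0 and 8.72 FPKM in Limch1_OE. The second Limch1_OE library therefore had the Vector pattern in Acbd4 as in Apeh, and its Acbd4-202 share lay just below the lowest Vector library.

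In Wdr75, Suv39h1 and Pank2 the direction of the annotation was the opposite, from a coding transcript in Vector to one not coding in Limch1_OE. For Suv39h1 the retained intron is printed in the same way. In Suv39h1-205 the capitals are its 85 bases at chrX:8063826-8063910 (minus strand), which Suv39h1-203 lacks. Suv39h1-203 in turn has 139 bases at its start and 255 at its end, not coding, that Suv39h1-205 lacks.
Suv39h1-205: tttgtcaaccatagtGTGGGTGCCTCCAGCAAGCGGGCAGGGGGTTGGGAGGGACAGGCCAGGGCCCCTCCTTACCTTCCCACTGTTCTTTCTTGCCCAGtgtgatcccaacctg
The Suv39h1 intron also begins with GT and ends with AG, and holds no stop codon in the frame of Suv39h1-203, but its length is not a multiple of 3.

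Suv39h1 (ENSMUSG00000039231, chrX:8061171-8074760) is a histone methyltransferase that marks heterochromatin at lysine 9 of histone H3. The coding Suv39h1-203 took 53.6%, 78.03% and 65.5% in Vector and 12.2%, 30.5% and 49.4% in Limch1_OE. The groups were separated only by the gap between the third Limch1_OE library and the first Vector library, and each group spread over more than 20 points. The intron-retaining Suv39h1-205 was listed at 5.57, 1.76 and 3.46 FPKM in Vector and 12, 9.96 and 7.71 FPKM in Limch1_OE, higher in every Limch1_OE library, and the coding Suv39h1-202 at 3.23, 1.71 and 3.68 FPKM in Vector and 13, 9.58 and 4.75 FPKM in Limch1_OE. Suv39h1-205 was itself the largest transcript in 1 of the 3 Limch1_OE libraries.

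Pank2 (ENSMUSG00000037514, chr2:131262495-131299188) encodes a mitochondrial pantothenate kinase, which starts coenzyme A synthesis. The coding Pank2-204 was listed at 9.05, 9.15 and 7.24 FPKM in Vector and 6.53, 7.26 and 6.35 FPKM in Limch1_OE. Pank2-207, annotated for nonsense-mediated decay, was listed at 1.72, 1.32 and 8.46 FPKM in Vector and 9.96, 10.4 and 10.4 FPKM in Limch1_OE. The third Vector library thus resembled the Limch1_OE libraries in its Pank2-207 level, while the FPKM of Pank2-204 overlapped between the groups, by the third Vector and second Limch1_OE libraries.

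Wdr75 (ENSMUSG00000025995, chr1:45795166-45823619), a nucleolar protein of ribosomal RNA processing, had 60.5%, 77.96% and 69.8% in Vector and 26.2%, 48.2% and 21.2% in Limch1_OE as the share of the coding Wdr75-201. The intron-retaining Wdr75-207, which holds 571 bases that Wdr75-201 lacks, took 36.6%, 9.49% and 21.9% in Vector and 65.1%, 42% and 68.7% in Limch1_OE. The groups did not overlap in either share, although the second Limch1_OE library was closest to Vector.

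The 14 genes with 2 different coding sequences hold 3 in which the protein's first residues are encoded by other exons (Pfkfb3, Mxi1 and Vma21). In 1 an exon extension alters the last residues (Stx18). Short internal exons or extensions differ in others, namely Mpc1, where the encoded protein is the same, and Rnf111. For these 6 genes the coding stretches concerned are printed, with the stretch of each form in capitals and the bases next to it in lower case. Pfkfb3-220 and Pfkfb3-206 differ in the first coding exon, at chr2:11553827-11553842 and chr2:11501625-11501700 (minus strand). Mxi1-201 and Mxi1-203 do too, and for them the 73 bases before the shared exon are given, at chr19:53310901-53310973 and chr19:53329648-53329720 (plus strand). Vma21-203 and Vma21-202 differ at chrX:71816590-71816699 and chrX:71816888-71816940 (plus strand). For Stx18-201 and Stx18-203 the last coding bases are given, at chr5:38136355-38136369 and chr5:38136263-38136355 (plus strand). The first 92 capitals of Stx18-203 are an extension of the exon that Stx18-201 lacks. The capitals of Stx18-201 are also part of Stx18-203, which has every base of Stx18-201, but all after the first of them lie in its stop codon or beyond it.
Pfkfb3-220: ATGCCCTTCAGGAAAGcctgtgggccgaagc
Pfkfb3-206: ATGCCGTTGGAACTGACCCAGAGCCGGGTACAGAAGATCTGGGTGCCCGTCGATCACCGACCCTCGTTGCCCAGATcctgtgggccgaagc
Mxi1-201: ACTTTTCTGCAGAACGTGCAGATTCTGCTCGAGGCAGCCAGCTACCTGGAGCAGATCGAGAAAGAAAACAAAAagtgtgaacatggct
Mxi1-203: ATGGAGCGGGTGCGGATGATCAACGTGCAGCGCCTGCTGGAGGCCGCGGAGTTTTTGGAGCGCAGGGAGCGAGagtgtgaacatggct
Vma21-203: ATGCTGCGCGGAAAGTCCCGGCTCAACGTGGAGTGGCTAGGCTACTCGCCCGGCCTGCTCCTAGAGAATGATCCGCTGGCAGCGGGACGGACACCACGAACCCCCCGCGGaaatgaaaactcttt
Vma21-202: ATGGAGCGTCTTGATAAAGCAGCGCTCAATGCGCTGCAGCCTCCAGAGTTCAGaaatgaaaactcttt
Stx18-201: gaagacatccgagagCTAGCCCACCAGGGC
Stx18-203: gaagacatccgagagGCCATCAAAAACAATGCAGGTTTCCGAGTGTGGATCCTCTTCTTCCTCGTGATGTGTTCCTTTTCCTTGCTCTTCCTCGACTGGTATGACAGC

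Pfkfb3 (ENSMUSG00000026773, chr2:11471433-11554077) makes and breaks down fructose-2,6-bisphosphate, an activator of glycolysis. The start of Pfkfb3-206 lies 51976 bases downstream of that of Pfkfb3-220. Pfkfb3-220 was present at 3.32, 4.87 and 3.79 FPKM in Vector and 0, 0 and 0 FPKM in Limch1_OE, and was listed at 0 in every Limch1_OE library. Pfkfb3-206 was present at 1.13, 1.52 and 1.53 FPKM in Vector and 4.53, 5.77 and 5.24 FPKM in Limch1_OE, without overlap. Another coding transcript, Pfkfb3-214, was the largest in the first Vector library by a small margin, at 41.7% of the gene against 41.0% for Pfkfb3-220.

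Mxi1 (ENSMUSG00000025025, chr19:53310518-53375810) is a partner of MAX that opposes MYC at shared target sites, and its 2 dominant forms start 18895 bases apart. Mxi1-201, from the upstream start, took 83.5%, 46.6% and 75.1% in Vector and 39.6%, 30.9% and 39.9% in Limch1_OE. Mxi1-203, from the downstream start, took 14.3%, 50.03% and 24.05% in Vector and 58.3%, 67.9% and 57.3% in Limch1_OE. The second Vector library lay between the other Vector libraries and the Limch1_OE libraries. In FPKM the upstream form overlapped between groups, at 23.6, 13.9 and 20.7 FPKM in Vector and 13.6, 11.7 and 14.5 FPKM in Limch1_OE. The downstream form did not, at 4.04, 14.97 and 6.62 FPKM in Vector and 19.98, 25.6 and 20.8 FPKM in Limch1_OE, and every Limch1_OE library had more of it than any Vector library.

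Because the Mxi1 data separate 2 start sites, the 100 bases before each RefSeq start (GRCm38.p6, plus strand) are shown, at chr19:53310406-53310505 for Mxi1-201 and chr19:53329313-53329412 for Mxi1-203, with each CG dinucleotide in capitals (CG reads the same on both strands).
Mxi1-201 promoter: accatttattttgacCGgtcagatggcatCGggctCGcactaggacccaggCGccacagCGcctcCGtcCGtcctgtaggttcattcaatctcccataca
Mxi1-203 promoter: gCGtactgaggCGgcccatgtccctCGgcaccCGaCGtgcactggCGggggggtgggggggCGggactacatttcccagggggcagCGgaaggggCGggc
In the 300-base window around the start the upstream promoter holds 17 CG dinucleotides and the downstream one 21, against a median of 7 over 32851 RefSeq windows of that length. At least as many are held by 31.4% and 24.8% of those windows. This is a description of the letters and no measure of promoter activity.

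Vma21 (ENSMUSG00000073131, chrX:71815924-71839757), an assembly factor of the vacuolar proton pump, kept 1 dominant form in each group. Vma21-203 took 69.2%, 71.05% and 83.7% in Vector and 17.6%, 49.3% and 41.6% in Limch1_OE. Vma21-202, whose start lies 834 bases downstream, took 29.2%, 28.9% and 15.98% in Vector and 81.3%, 50% and 57.04% in Limch1_OE. In the second Limch1_OE library the 2 forms were nearly equal.

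Stx18 (ENSMUSG00000029125, chr5:38038742-38137765) encodes a SNARE protein of the endoplasmic reticulum. Stx18-201 was listed at 13.7, 11.4 and 7.3 FPKM in Vector and 1.51, 3.02 and 2.13 FPKM in Limch1_OE, and Stx18-203 at 1.77, 3.32 and 5.03 FPKM in Vector and 6.7, 6.83 and 6.98 FPKM in Limch1_OE. Stx18-201 was lower and Stx18-203 higher in every Limch1_OE library. The principal annotated form (in APPRIS, which ranks a gene's protein isoforms) is Stx18-203, with a coding sequence of 1002 bases against 924.

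The capitals for the internal differences are the alternative 4-base exons of Mpc1-201 at chr17:8296527-8296530 and Mpc1-208 at chr17:8293415-8293418 (plus strand), and extensions of 24 and 3 bases in Rnf111-201 at chr9:70429656-70429679 and chr9:70450539-70450541 (minus strand).
Mpc1-201: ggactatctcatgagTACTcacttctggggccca
Mpc1-208: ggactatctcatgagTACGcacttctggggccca
Rnf111-201, 24 bases: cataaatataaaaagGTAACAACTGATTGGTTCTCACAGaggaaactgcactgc
Rnf111-201, 3 bases: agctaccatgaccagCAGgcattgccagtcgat
The lengths of 24 and 3 bases are multiples of 3. The coding sequences of Mpc1-201 and Mpc1-208 have 327 bases each and differ at 1 base, written T75G with the Vector dominant base first and positions counted from the first coding base.

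Mpc1 (ENSMUSG00000023861, chr17:8282904-8297661) encodes a subunit of the mitochondrial pyruvate carrier. Mpc1-201 took 76.6%, 40.7% and 78.2% in Vector and 11.4%, 0% and 22.8% in Limch1_OE. Mpc1-208 was listed at 0, 0 and 0 FPKM in Vector and 8.19, 9 and 0 FPKM in Limch1_OE, so the new dominant form was present in 2 of the 6 libraries. In the second Vector library Mpc1-202 was the largest, at 55.3%, and in the third Limch1_OE library Mpc1-205 was, at 54.1%.

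Rnf111 (ENSMUSG00000032217, chr9:70425424-70503725), also called Arkadia, is a ubiquitin ligase of TGF-beta signalling. Rnf111-201 took 65.6%, 63.1% and 75.9% in Vector and 49.7%, 15.9% and 27.5% in Limch1_OE, and Rnf111-204 took 15.1%, 29.3% and 20.7% in Vector and 40.4%, 78.1% and 64.8% in Limch1_OE. In the first Limch1_OE library Rnf111-201 was still the larger form.

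Different coding sequences were also found in Sra1, BC004004, Rnf168, Adamts4, March2, Tnip1 and Sept8. Rnf168 (ENSMUSG00000014074), a histone ubiquitin ligase of the DNA damage response, had 79.9%, 86.97% and 86.9% in Vector and 64.9%, 38.4% and 38.9% in Limch1_OE as the share of Rnf168-203, and the remainder was Rnf168-201. These 2 forms share every exon junction and differ in their ends, Rnf168-203 being 528 bases longer.

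Adamts4 (ENSMUSG00000006403) encodes a protease that cleaves the cartilage proteoglycan aggrecan. Adamts4-202 took 34.2%, 41.8% and 34.6% in Vector and 3.53%, 1.76% and 1.99% in Limch1_OE, and Adamts4-203 took 19.95%, 57.5% and 19.9% in Vector and 96.5%, 98.2% and 98.01% in Limch1_OE. Adamts4-202 was not the largest transcript in any single Vector library, and it was dominant only on the group mean. The 2 models differ by 3 bases in all, 2 at the start and 1 at the end, and share every junction. Their annotated coding sequences have 2499 and 2535 bases. Few reads can therefore tell these models apart, and how far the split between them rests on the estimate was not tested. Adamts4-201, at 45.8%, 0.64% and 45.6% in Vector and 0%, 0% and 0% in Limch1_OE, was also listed at 0 in every Limch1_OE library.

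March2 (ENSMUSG00000079557), a membrane-bound ubiquitin ligase, had 58.6%, 52.1% and 65.8% in Vector and 40.5%, 32.3% and 3.15% in Limch1_OE as the share of March2-205. March2-203, whose coding sequence is 738 bases against 696, took 19.02%, 33.8% and 14.9% in Vector and 38.2%, 59.3% and 77.5% in Limch1_OE. Neither share overlapped between groups, and the third Limch1_OE library was the most distant from Vector.

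Tnip1 (ENSMUSG00000020400) encodes a partner of the NF-kB inhibitor A20. Tnip1-202 was listed at 32.5, 28.98 and 26.9 FPKM in Vector and 11.04, 9.18 and 14 FPKM in Limch1_OE, without overlap. Tnip1-201 was listed at 1.27, 5.3 and 9.17 FPKM in Vector and 8.77, 11.8 and 14.2 FPKM in Limch1_OE, and its levels overlapped. Tnip1-201, Tnip1-202 and Tnip1-205 held similar mean shares in Limch1_OE, 28.2%, 27.9% and 28.1%, so no form clearly led there.

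Sept8 (ENSMUSG00000018398), a septin of the cytoskeleton, was among the more highly expressed of the 32 genes. Sept8-201 was listed at 49.5, 47.1 and 45.99 FPKM in Vector and 22.4, 39.3 and 11.5 FPKM in Limch1_OE. Sept8-202 was listed at 17.9, 18.6 and 17.6 FPKM in Vector and 38.4, 22.7 and 51.3 FPKM in Limch1_OE. The 3 Vector libraries were close to each other and the Limch1_OE libraries were spread, with Sept8-201 still the larger form in the second.

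In BC004004 (ENSMUSG00000052712) BC004004-201 took 49.6%, 87.5% and 82.2% in Vector and 33.8%, 32.9% and 36.2% in Limch1_OE. BC004004-212, which holds 117 coding bases more, took 4.59%, 0.75% and 2.24% in Vector and 40.8%, 25.4% and 49.5% in Limch1_OE. It was under 5% in every Vector library.

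Sra1 (ENSMUSG00000006050), the steroid receptor RNA activator gene, had 16.9, 14.99 and 17.3 FPKM in Vector and 0, 12.8 and 0 FPKM in Limch1_OE as the level of Sra1-201, whose annotation is incomplete at its start. Sra1-204 was listed at 8.87, 8.83 and 9.56 FPKM in Vector and 11.5, 8.64 and 13.7 FPKM in Limch1_OE, with overlap. Sra1-201 was listed at 0 in the first and the third Limch1_OE libraries, and the second stood near Vector.

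In 8 genes the 2 dominant transcripts have the same coding sequence and differ outside it. For the 7 of them compared base by base, the coding sequences had no different base over 504 (Atp5d) to 5262 (Rreb1) coding bases. Tbl1xr1 (ENSMUSG00000027630, chr3:22076652-22216594), a component of the NCoR and SMRT corepressor complexes, had 80.8%, 82.4% and 88.2% in Vector and 39%, 25% and 37.5% in Limch1_OE as the share of Tbl1xr1-203. Tbl1xr1-211, which ends 3843 bases upstream of it, took 17.95%, 17.2% and 11.6% in Vector and 61%, 47.5% and 62.4% in Limch1_OE. The 2 groups were far apart in both, and the form with the shorter 3′ end was the larger in each Limch1_OE library.

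Rreb1 (ENSMUSG00000039087, chr13:37778400-37952005) is a zinc finger transcription factor downstream of RAS. Rreb1-207 took 58.6%, 50.1% and 32.6% in Vector and 6.54%, 9.96% and 5.64% in Limch1_OE, and Rreb1-201, whose start lies 62556 bases downstream, took 8.15%, 12.3% and 27.3% in Vector and 47.2%, 76.3% and 39.7% in Limch1_OE. Groups did not overlap in either, and the pair together held about the same part of the gene, 63.0% and 61.8%.

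Atp5d (ENSMUSG00000003072, chr10:80138632-80145818), the delta subunit of the mitochondrial ATP synthase, was the most highly expressed of the 32 genes. Atp5d-203 was listed at 52.6, 57.9 and 63.1 FPKM in Vector and 24.3, 11.5 and 18.6 FPKM in Limch1_OE, and Atp5d-201 at 37.9, 37.5 and 29.96 FPKM in Vector and 78.5, 117.6 and 97.3 FPKM in Limch1_OE. Both differed without overlap. The start of Atp5d-201 lies 858 bases downstream.

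Rab40c (ENSMUSG00000025730), a Rab GTPase with a SOCS box, had 62.7%, 79.4% and 83.97% in Vector and 47.7%, 43.1% and 0% in Limch1_OE as the share of Rab40c-201. Rab40c-207 took 24.6%, 17.9% and 15.5% in Vector and 49.8%, 54.98% and 98.9% in Limch1_OE. The third Limch1_OE library stood apart, with Rab40c-201 listed at 0, and in the first the 2 forms were within 3 points.

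Shoc2 (ENSMUSG00000024976), a scaffold for the activation of RAF kinases, had 59.9%, 30.01% and 50.6% in Vector and 5.77%, 1.69% and 7.67% in Limch1_OE as the share of Shoc2-202. Shoc2-201, whose start lies 574 bases downstream, took 37.7%, 41.8% and 48.4% in Vector and 90.2%, 94.1% and 91.5% in Limch1_OE. In Vector the 2 forms were near balance and in the second library Shoc2-201 was the larger, whereas Shoc2-201 held over 90% in every Limch1_OE library.

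Aar2 (ENSMUSG00000027628), an assembly factor of the U5 snRNP of the spliceosome, had 69.4%, 82.4% and 85.03% in Vector and 23.8%, 38.5% and 67.1% in Limch1_OE as the share of Aar2-201. The remainder was almost wholly Aar2-202, which ends 816 bases upstream. In the third Limch1_OE library Aar2-201 remained the larger form.

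Ddx39 (ENSMUSG00000005481), a DEAD-box helicase of mRNA export, had 33.8, 29.7 and 35.5 FPKM in Vector and 12.7, 12.4 and 15.7 FPKM in Limch1_OE for Ddx39-201, without overlap. Ddx39-202 was listed at 8.74, 7.35 and 6.1 FPKM in Vector and 5.71, 16.6 and 21.9 FPKM in Limch1_OE, with overlap. In Limch1_OE the mean shares of Ddx39-202, the intron-retaining Ddx39-203 and Ddx39-201 were 27.9%, 27.7% and 27.5%, so Ddx39-202 led by less than 1 point.

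Fam53c (ENSMUSG00000034300) had the largest share difference of the 32 genes, 55.6 points. Fam53c-201 took 99.9%, 100% and 40.5% in Vector and 8.33%, 39.01% and 26.4% in Limch1_OE, and the remainder was Fam53c-202, which starts 650 bases downstream. The third Vector library was nearest to Limch1_OE, and Fam53c-202 was the larger form there.

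For Sacm1l and Abr the annotation holds no pair to compare. Sacm1l (ENSMUSG00000025240, chr9:123529759-123592600), a phosphoinositide phosphatase of the endoplasmic reticulum, had 2 transcripts that are named by identifier only. ENSMUST00000239083 was listed at 13.4, 13.2 and 13.7 FPKM in Vector and 1.49, 2.91 and 3.98 FPKM in Limch1_OE, and ENSMUST00000238984 at 3.64, 2.7 and 2.89 FPKM in Vector and 25, 20.7 and 17.2 FPKM in Limch1_OE. The first was lower and the second higher in every Limch1_OE library. The annotated coding Sacm1l-201 was lower too, at 4.22, 5.31 and 5.96 FPKM in Vector and 2.44, 2.95 and 3.77 FPKM in Limch1_OE.

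Abr (ENSMUSG00000017631) had 18.5%, 74.2% and 9.8% in Vector and 3.84%, 0.08% and 0.23% in Limch1_OE as the share of Abr-203. The Vector mean rested on the second library, the only one in which Abr-203 was the largest. ENSMUST00000238684 took 24.8%, 0.68% and 44.8% in Vector and 37.3%, 54.6% and 54.8% in Limch1_OE, and the groups overlapped.

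**Figure D4:**
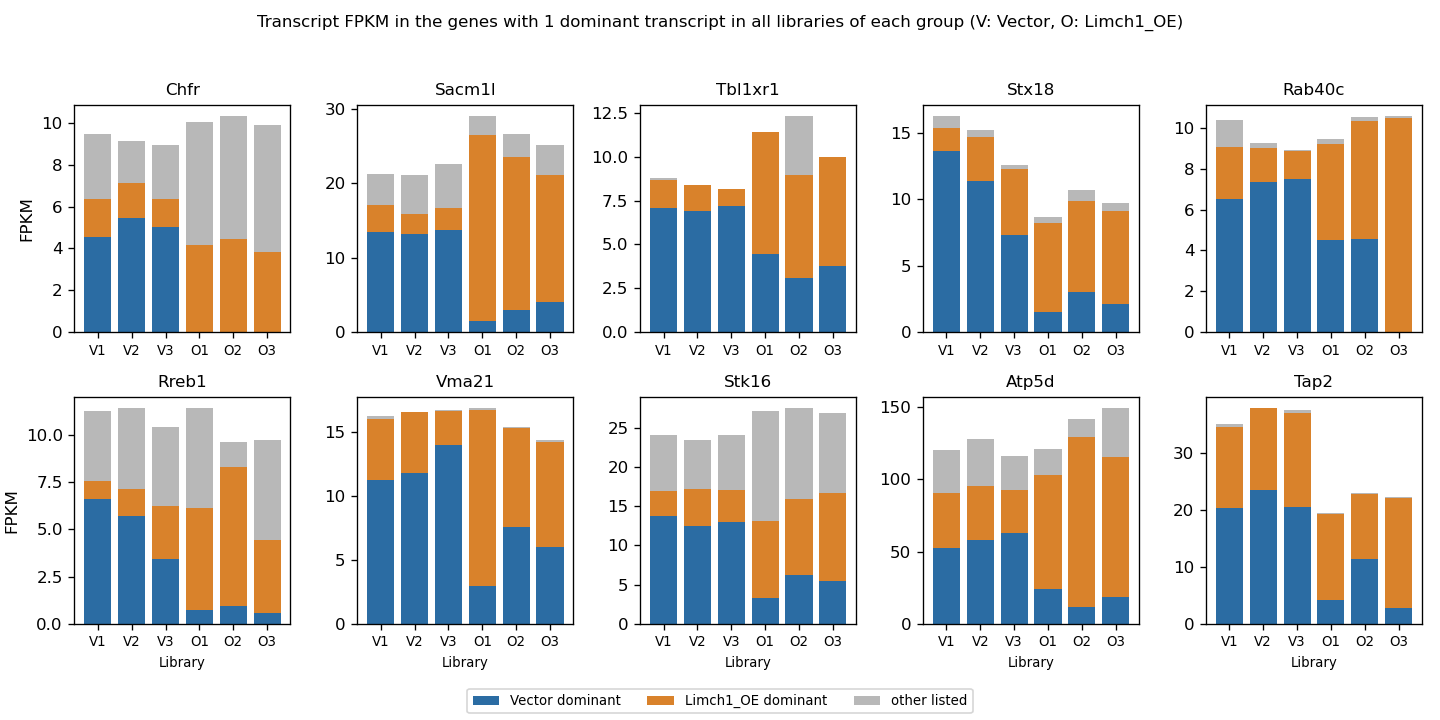
Transcript FPKM (y axis, stacked) in each library (x axis: V1 to V3 are Vector, O1 to O3 are Limch1_OE) for the 10 genes with 1 dominant transcript in all libraries of each group. Blue is the Vector dominant transcript, orange the Limch1_OE dominant one and grey all other listed transcripts. In Chfr the blue part is listed at 0 in all 3 Limch1_OE libraries, and in Tap2 the orange part overlaps between the groups.

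The genes just inside the 30-point minimum were Tnip1 (31.3 points), Sept8 (31.2 points) and Tap2 (30.5 points). Just outside it lay Vipas39 with 29.2 points, Aup1 with 29.1 and Trmt2a with 29.1. In Vipas39 the second Limch1_OE library stood apart, with Vipas39-203 at 67.2%, 67.2% and 59.0% in Vector and at 51.1%, 0% and 54.7% in Limch1_OE.

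The gene totals, that is the sum over all listed transcripts, come from the same contrast as the rule and form the denominator of the shares, so they are given as values and counts from which nothing is read. In the limma fit over 11842 genes (log2(FPKM + 1), Benjamini-Hochberg adjustment, threshold 0.05), 6 of the 32 genes were higher in Limch1_OE, 5 were lower and 21 did not pass. Over all tested genes 20.2% were higher and 14.4% lower. With trimmed-mean scaling the higher share of all called genes was 46.9%, against 58.3% here, while the counts for the 32 genes were the same. The log2 fold changes ran from -0.75 to 0.53 with a median of 0.03, against 0.04 over all tested genes, and 28 of the 32 lay within 0.5 of 0. Tap2 had the lowest, with totals of 35.1, 38.03 and 37.7 FPKM in Vector and 19.6, 23.1 and 22.4 FPKM in Limch1_OE (log2 fold change -0.75 ± 0.07 SE, limma adjusted p = 8.98e-05). Sra1 (log2 fold change -0.62 ± 0.17 SE, limma adjusted p = 0.024), Stx18 (log2 fold change -0.55 ± 0.10 SE, limma adjusted p = 0.00434), Tnip1 and Adamts4 were the others that fell.

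Pank2 had the highest fold change, with totals of 11.4, 10.9 and 16.97 FPKM in Vector and 18.9, 19.4 and 18.8 FPKM in Limch1_OE (log2 fold change 0.53 ± 0.14 SE, limma adjusted p = 0.0168). Tbl1xr1 (log2 fold change 0.37 ± 0.08 SE, limma adjusted p = 0.00787), Suv39h1 (log2 fold change 0.36 ± 0.04 SE, limma adjusted p = 0.000495), Mxi1, Sacm1l and Stk16 were the others that rose. In Suv39h1 the totals were 24.4, 23.9 and 24.5 FPKM in Vector and 31.2, 31.5 and 31.8 FPKM in Limch1_OE, and the group values did not overlap. Of the genes with the largest share differences, the totals of Fam53c, Chfr, Mpc1, Apeh and Pfkfb3 did not pass. Those of Sacm1l, Tbl1xr1 and Stx18 passed. Fam53c totals were 14.03, 14.5 and 14.8 FPKM in Vector and 12.7, 14.3 and 13.5 FPKM in Limch1_OE, and they overlapped.

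**Figure D5:**
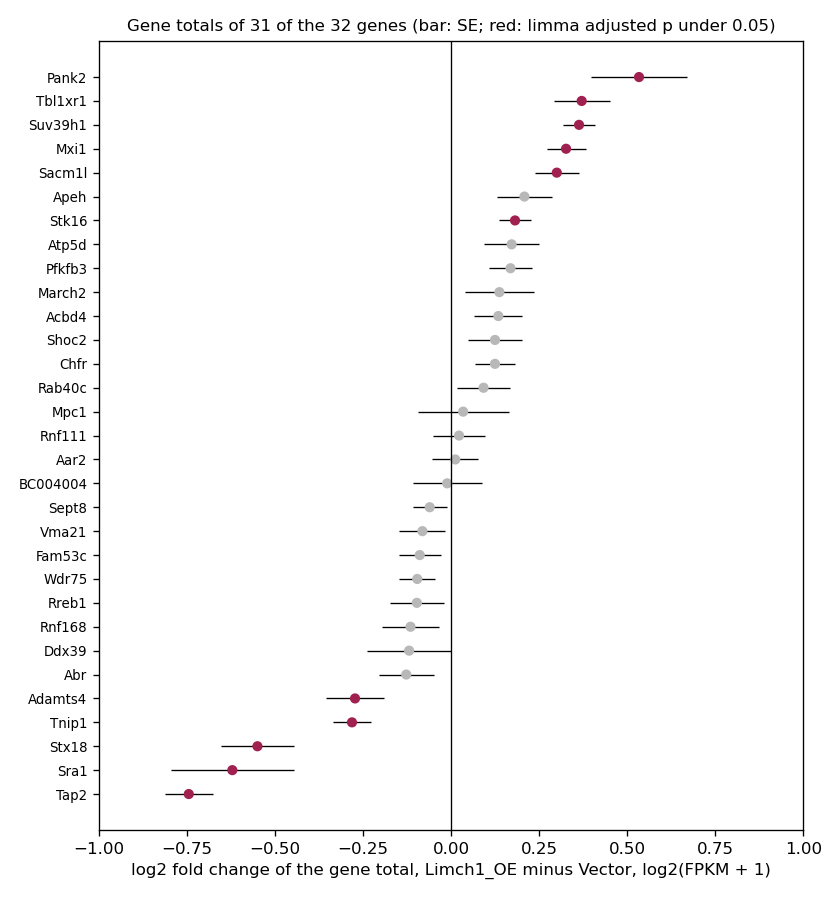
The log2 fold change of the gene total (x axis, Limch1_OE minus Vector, on log2(FPKM + 1)) for 31 of the 32 genes, with bars for the standard error of the limma fit over 3 libraries a group. Red points are the 11 genes with an adjusted p under 0.05, from Tap2 at -0.75 to Pank2 at 0.53.

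Genes of the machinery that chooses between transcripts were taken from 7 lists, none of which holds any of the 32 genes. In the same fit 48 of 157 tested list genes rose, 14 fell and 95 did not pass, with a median log2 fold change of 0.08. That is 30.6% higher and 8.92% lower, against 20.2% and 14.4% over all tested genes. With trimmed-mean scaling 40 list genes were higher and 16 lower, beside 1842 higher and 2089 lower of all 11842 tested genes. Of 16 SR proteins and partners, which bind exons and promote their use, 8 rose and 1 fell (median 0.27). Of 8 SR protein kinases 5 rose and 3 did not pass (median 0.31). Tra2b, an SR-like activator of exon inclusion, had totals of 31.5, 32.4 and 33.7 FPKM in Vector and 68.02, 58.5 and 55.3 FPKM in Limch1_OE (log2 fold change 0.87 ± 0.07 SE, limma adjusted p = 5.44e-05), and the groups did not overlap. Srsf5 (log2 fold change 0.58 ± 0.06 SE, limma adjusted p = 0.000142), Srsf6 (log2 fold change 0.52 ± 0.07 SE, limma adjusted p = 0.000694) and Srsf4 (log2 fold change 0.27 ± 0.05 SE, limma adjusted p = 0.0035) also rose. Among the kinases Srpk2 had totals of 12.1, 12.7 and 12.2 FPKM in Vector and 20.6, 20.9 and 18.9 FPKM in Limch1_OE (log2 fold change 0.66 ± 0.06 SE, limma adjusted p = 6.58e-05), and Clk1, Clk4 and Clk3, which phosphorylate SR proteins in the nucleus, rose by log2 fold changes of 0.36, 0.35 and 0.27.

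Of 27 hnRNP proteins, which often oppose SR proteins, 6 rose and 2 fell (median 0.03), and the 22.2% that rose lie near the share over all tested genes. Pcbp1, a binder of C-rich RNA, fell, with totals of 156.3, 168.5 and 158.2 FPKM in Vector and 114.4, 122.5 and 125.9 FPKM in Limch1_OE (log2 fold change -0.41 ± 0.05 SE, limma adjusted p = 0.000652), and Hnrnph2, Hnrnpm and Hnrnpc rose by 0.34, 0.27 and 0.19 on the log2 scale. Of 25 tissue-regulated splicing factors 10 rose and 1 fell (40% and 4%, median 0.12), against 20.2% and 14.4% over all tested genes. Among those that rose were Rbm6 (log2 fold change 0.39 ± 0.05 SE, limma adjusted p = 0.000451), Rbm5 (log2 fold change 0.31 ± 0.05 SE, limma adjusted p = 0.00152) and Celf2 (log2 fold change 0.47 ± 0.09 SE, limma adjusted p = 0.00437). Of 37 core spliceosome genes 6 rose and 5 fell (median 0.05). These 16.2% and 13.5% lie near the shares over all tested genes, so the genes named are single genes that passed and the count is no result about the spliceosome. Snrnp200, the helicase that unwinds U4 from U6, rose from a mean of 46.2 ± 2.43 to 62.5 ± 1.75 FPKM (SD, n = 3 each). U2af1, which reads the 3′ splice site, rose by 0.35, and Sf1 and Sf3b4, of branch point recognition, had log2 fold changes of -0.25 and -0.24.

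Of 24 genes of transcript end choice 9 rose and 1 fell (37.5% and 4.17%, median 0.14), against 20.2% and 14.4% over all tested genes. Cstf2t, a cleavage stimulation subunit, had totals of 9, 9 and 9.12 FPKM in Vector and 12.3, 13.7 and 12.9 FPKM in Limch1_OE (log2 fold change 0.47 ± 0.06 SE, limma adjusted p = 0.000632), and Cpsf7, Cpsf3 and Rbbp6 rose by 0.25, 0.29 and 0.29. Of 20 genes of nonsense-mediated decay 4 rose and 4 fell (median -0.01), the former at 20%, near the share over all tested genes. Rnps1, of the exon junction complex, had totals of 60.02, 62.6 and 61.6 FPKM in Vector and 81.3, 80.2 and 79.9 FPKM in Limch1_OE (log2 fold change 0.38 ± 0.04 SE, limma adjusted p = 0.000234) and Pnrc2 rose by 0.35, while Upf1, the central helicase of the pathway, fell (log2 fold change -0.32 ± 0.05 SE, limma adjusted p = 0.00235). In 2 further lists, 5 of 29 epithelial and mesenchymal splicing targets rose and 10 fell (17.2% and 34.5%). Of 31 actomyosin and LIM-domain genes 5 rose and 11 fell (16.1% and 35.5%). Over all tested genes 20.2% rose and 14.4% fell. Neither list holds one of the 32 genes. Whether any of these genes had a part in the transcript shares was not tested.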

How the data were processed

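RNA sequencing of 6 libraries (3 Vector, 3 Limch1_OE) was used as 1 deposited table of FPKM per transcript, which the authors give to 2 decimals. Per the submitters' processing notes the build was mm10 and the tools were STAR 2.7.10, StringTie 2.2.1, featureCounts 2.0.1 and fastp 0.23.2. The tool that made the FPKM, the annotation release, and how strand and multiply matching reads were handled: not given in the sources used here. It holds 77865 transcripts of 26094 genes, of which 77362 and 26033 are in GENCODE M21, and 245 of the 296 annotated transcripts of the 32 genes. No column without a sample was used. The table gives no counts, so the depth is unknown, no count test was run and no interval is given.

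Shares were computed per gene and library with pandas 2.3.3 in python 3.11.15. Gene totals were sums of listed transcripts, tested with limma 3.58.1 (lmFit and eBayes with trend, R 4.3.3) on log2(FPKM + 1) as Limch1_OE minus Vector (two-sided) for genes of at least 1 FPKM in at least 3 libraries, with Benjamini-Hochberg adjustment; a fold change on this scale understates that of low genes. Both steps were tested on simulated data. The members and the gene lists were chosen with earlier results of these data known. Named were the 20 members with the largest share difference, the 5 with the highest totals, the 12 with the largest difference among those with different coding sequences, members of a list, the 3 genes on each side of the threshold, the 4 list genes of smallest p per machinery list, and Limch1; the remaining members were added. Of the 32 members 1 is counted but not reported here, nor are 2 of the list genes and some sequences. Alternatives covered the expression minimum, the share threshold, transcript sets, share averaging, scaling, the pseudocount, a replicate block and leaving out each library.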

Additional observations from a re-analysis of the deposited data

How the results depend on the processing

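The number of genes that met the rule was 32, and 46 or 25 with a minimum of 1 or 10 FPKM, 61 with a minimum difference of 20 points and 12 with 40. It stayed at 32 with protein-coding transcripts only (24 genes shared), with the ratio of group means (31 shared) and with transcripts under 0.5 FPKM removed (31 shared). Leaving out any 1 of the 6 libraries gave 56 to 68 genes, because groups of 2 libraries overlap less often; 24 to 30 of the 32 genes stayed, the fewest without Limch1_OE replicate 3, and 14 stayed under all 6 omissions. Alternatives chosen after seeing the data were the mirrored rule on the Limch1_OE dominant transcript (28 genes, 21 shared) and constant dominant transcripts in each group (24 genes, 10 shared). Pairs that differed in annotated coding sequence or coding class (Mpc1 included) numbered 22, 7 with a minimum of 40 points and 36 to 50 when leaving out 1 library. Pairs with starts apart numbered 20, 9 with a minimum of 40 points, 9 with starts within 500 bases counted as the same and 34 to 40 when leaving out 1 library. Of 250 alternative values of the share differences 2 moved by more than the spread and none was reversed. The 2 were Wdr75 (37.6 to 0.62 points) and Pank2 (33.4 to 1.05 points) with protein-coding transcripts only, a setting that leaves out their Limch1_OE dominant forms. Where the spread was wide, large shifts did not count as moved. Abr had 12.8 points without Vector replicate 2 against 32.8, with an SD of 24.8. Among the totals of the 32 genes 6 were higher (4 to 9 when leaving out 1 library) and 5 lower. The lower count was 3 without a filter on low values and 3 to 4 when leaving out 1 library, being 3 without Vector replicate 1, Vector replicate 3 or Limch1_OE replicate 1. With a replicate block 7 were higher and 5 lower. The numbers were not taken to pair the samples in the main fit. The deviations of same-numbered libraries correlated at -0.0017, 0.0456 and 0.0592, and those of differently numbered ones at -0.0674 to 0.0271. These correlations are weak, but with 3 libraries a group they cannot exclude a pairing. Machinery genes that rose numbered 48 and from 33 to 58 under the alternatives. The depth behind the values is unknown, and with 3 libraries a group the smallest exact p would be 0.1.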

Other observations

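A further 36 genes had a difference of at least 30 points and different dominant transcripts, but overlapping libraries, so that they did not meet the rule. In several of them 1 library carried the pattern of the other group. Ap2a1, a subunit of the AP-2 clathrin adaptor, had Ap2a1-201 at 98.6%, 98.8% and 97.4% of the gene's FPKM in Vector and at 4.85%, 14.1% and 98.1% in Limch1_OE. Stx16, a SNARE of the trans-Golgi network, had Stx16-201 at 86.4%, 87.0% and 3.98% in Vector and at 5.07%, 2.50% and 2.26% in Limch1_OE. Card10, a scaffold of NF-kB activation, had Card10-202 at 88.5%, 89.7% and 94.9% in Vector and at 97.3%, 22.2% and 21.7% in Limch1_OE.

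In Psen2, a catalytic subunit of gamma-secretase, Psen2-204 took 0%, 89.6% and 67.3% in Vector and 15.7%, 0% and 0% in Limch1_OE. Tspan12, a tetraspanin, had Tspan12-202 at 67.2%, 78.9% and 6.03% in Vector and at 0%, 0% and 12.2% in Limch1_OE. The odd library was not the same one in these genes: it was the third Limch1_OE library in Ap2a1, the third Vector library in Stx16 and Tspan12, the first Limch1_OE library in Card10 and the first Vector library in Psen2. In other overlapping genes it was the second Limch1_OE library, which also stood near Vector in Apeh and Acbd4. Zscan25-202 took 64.7%, 66.0% and 63.5% in Vector and 0.49%, 65.6% and 0.75% in Limch1_OE. Dpm3-201 took 71.4%, 97.6% and 66.3% in Vector and 0%, 87.4% and 0% in Limch1_OE. Gm4070, Mta1 and Rfx5 had the same odd library.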
